A study of Mus musculus with 3 samples.

Results

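The genes described here are 45 members of the BMP, TGF-beta and activin pathway, chosen by name as ligands, receptors, SMADs, ID targets and extracellular antagonists. They were read from tables of 24091 genes, and all 45 were found by symbol. The RNA came from cells of the large intestine of C57BL/6 mice that carried CD31, podoplanin and LYVE1 at their surface and were labelled as lymphatic endothelium. The study has 1 group of 3 libraries, called replicates 1, 2 and 3, with no second condition. Age and sex, and whether the mice shared a treatment, are not given in the labels used here. Whether each library stands for a separate mouse is not stated, and differences between them may therefore be technical. Values are in TPM, a relative abundance corrected for transcript length and scaled to a fixed library total, and means are given ± SD over the 3 libraries. TPM keeps no sequencing depth, so the counting error behind a low value is unknown.

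Ligands of this family bind pairs of type I and type II serine/threonine kinase receptors. BMP receptors phosphorylate SMAD1, SMAD5 and SMAD9, whereas TGF-beta and activin receptors phosphorylate SMAD2 and SMAD3, and both kinds of SMAD enter the nucleus with SMAD4. In endothelium the type I receptor ALK1 (gene Acvrl1) and the co-receptor endoglin (Eng) respond to BMP9 and BMP10. ID genes and the inhibitory SMADs are classical transcriptional targets of BMP signalling, and the secreted antagonists noggin, chordin and gremlin hold BMPs back in the gut wall around the crypts.

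The cell label was checked first. The 8 lymphatic markers summed to 1564, 1647 and 898 in replicates 1, 2 and 3, and Prox1, the defining transcription factor, stood at 3.27, 4.82 and 2.63. The 8 epithelial markers summed to 14076, 14984 and 16135, well above the lymphatic ones in every library. Those of blood endothelium summed to 782, 698 and 669, and the 6 of glia and neurons to 9.54, 5.36 and 11.5. The 8 fibroblast markers summed to 189, 130 and 477, the 8 muscle and pericyte markers to 231, 185 and 411, and the 8 macrophage markers to 248, 173 and 550. Replicate 3 thus had the lowest lymphatic and blood endothelial sums and the highest sums of all other lists. The blood endothelial sum was lowest there by little, and its markers were split. Of the 8, 3 lay at least 1.5-fold above both other libraries in replicate 3, and 2 at least 1.5-fold below. A level below belongs to the mixed library, not to a cell, and in bulk RNA fewer cells of a type and less RNA per cell cannot be told apart.

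Expression at a TPM of 1 or more in each of the 3 libraries was found for 34 of the 45 members, while 9 never came to this level and 2 did so in some libraries. Over all genes of the tables, 53.4% reached this level in every library. The 34 covered all TGF-beta and BMP ligand genes, 5 of 6 type I receptors, all 4 type II receptors, both co-receptors, 7 of 8 SMADs, all 4 ID genes and 3 of 4 latent TGF-beta binding proteins. The members below it were the 5 BMP antagonists, follistatin (Fst), both activin subunit genes, Bmpr1b, Smad9 and Ltbp2, of which Chrd and Inhba passed a TPM of 1 in replicate 3 only. The median of the 45 means was 9.27 TPM, against 2.48 over all genes.

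**Figure D1:**
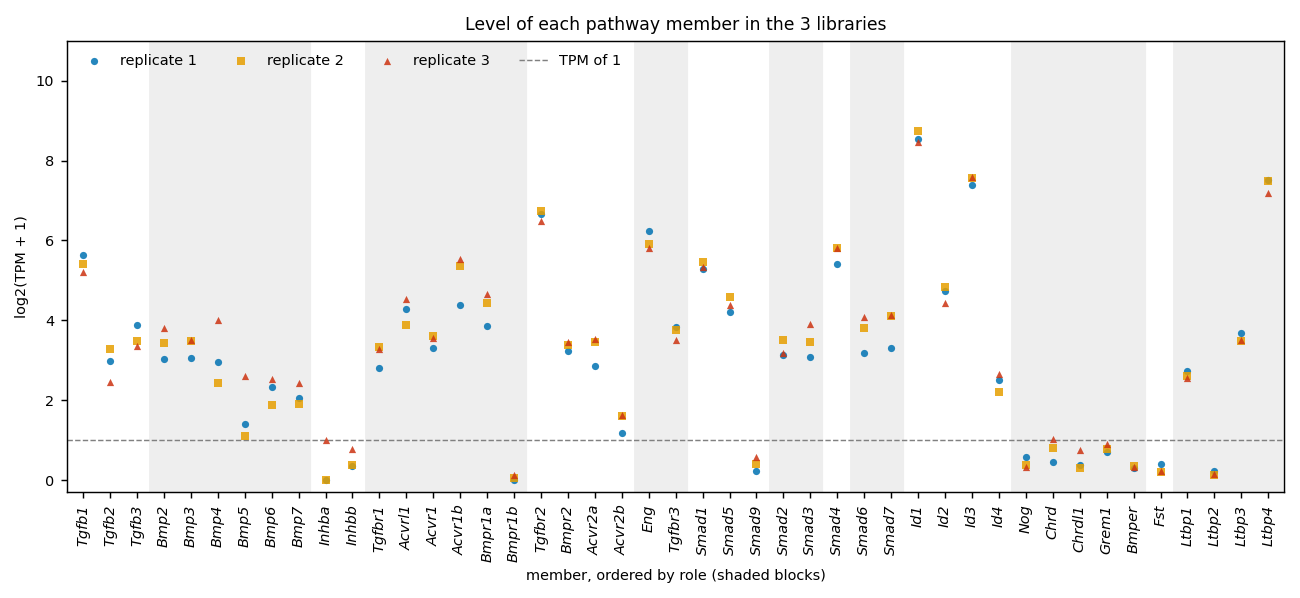
Level of each of the 45 members as log2(TPM + 1), with 1 mark per library and shaded blocks for the roles. The dashed line is a TPM of 1. Id1, Id3, Ltbp4 and Tgfbr2 lie at the top, and the antagonist genes, Smad9, Bmpr1b and Ltbp2 lie near or below the line.

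Id1 and Id3 were the members of highest mean level. Id1 (Entrez 15901, chromosome 2, 152736251 to 152737410) stood at 371, 425 and 352 TPM in replicates 1, 2 and 3, a mean of 383 ± 37.9. Id3 (Entrez 15903, chromosome 4, 136143822 to 136145392) followed at 165, 187 and 193. These genes encode helix-loop-helix proteins without a DNA-binding region, which bind E proteins and keep them off DNA. In each library Id1 was higher than Id3, by 1.07 ± 0.18 on the log2(TPM + 1) scale. Id2 was lower at 25.6, 27.3 and 20.6, and Id4 was the lowest at 4.63, 3.59 and 5.35. The levels of neighbours in this order did not overlap between libraries. Id1 and Id3 together made up 94.7%, 95.2% and 95.4% of ID transcripts, and their means lay at percentiles 97.2 and 94.1 of the expressed genes, those at a TPM of 1 in all libraries.

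The promoters of Id2, Id3 and Id4 are shown because ID genes are a readout of the pathway, and those of Bmp4 and Bmp5 because these 2 ligand genes shared a pattern between libraries, given below. Each line holds the 250 bases before a transcript start, 5′ to 3′ on the gene's strand, from RefSeq on GRCm38.p6. Capitals mark GGCGCC, a GC-rich element bound by BMP SMADs, and CAGAC or its reverse complement GTCTG, which holds the core SMAD box. Both strands were searched, and no window shown holds both motifs.
Id2 (chr12:25096093-25096342, minus strand): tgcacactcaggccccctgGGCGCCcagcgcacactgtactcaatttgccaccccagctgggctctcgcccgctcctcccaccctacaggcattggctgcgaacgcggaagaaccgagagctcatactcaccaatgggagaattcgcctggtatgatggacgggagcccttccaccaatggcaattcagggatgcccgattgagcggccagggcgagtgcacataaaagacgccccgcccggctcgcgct
Id3 (chr4:136143572-136143821, plus strand): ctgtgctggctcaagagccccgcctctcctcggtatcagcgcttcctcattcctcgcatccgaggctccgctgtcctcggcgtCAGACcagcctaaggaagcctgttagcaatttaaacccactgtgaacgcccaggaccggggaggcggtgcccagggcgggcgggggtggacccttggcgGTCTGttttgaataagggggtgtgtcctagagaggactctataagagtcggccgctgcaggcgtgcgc
Id4 (chr13:48260866-48261115, plus strand): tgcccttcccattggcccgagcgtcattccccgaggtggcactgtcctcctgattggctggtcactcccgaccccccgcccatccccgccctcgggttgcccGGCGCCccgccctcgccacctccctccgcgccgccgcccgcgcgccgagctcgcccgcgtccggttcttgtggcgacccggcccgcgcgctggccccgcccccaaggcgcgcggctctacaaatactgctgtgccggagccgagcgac
Bmp4 (chr14:46390670-46390919, minus strand): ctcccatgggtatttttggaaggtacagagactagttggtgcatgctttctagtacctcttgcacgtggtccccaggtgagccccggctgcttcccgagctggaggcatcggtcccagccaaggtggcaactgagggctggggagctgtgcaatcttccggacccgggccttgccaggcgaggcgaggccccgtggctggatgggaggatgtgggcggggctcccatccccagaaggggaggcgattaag
Bmp5 (chr9:75775115-75775364, plus strand): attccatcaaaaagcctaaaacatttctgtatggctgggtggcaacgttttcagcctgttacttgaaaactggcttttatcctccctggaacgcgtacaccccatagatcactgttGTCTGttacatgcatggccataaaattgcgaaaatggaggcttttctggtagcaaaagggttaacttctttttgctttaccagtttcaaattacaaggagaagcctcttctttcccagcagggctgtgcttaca

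GGCGCC began 231 bases before the start in Id2 and 148 bases before it in Id4. The Id3 window held CAGAC letters at 167 bases and, on the other strand, at 68 bases before the start. The Bmp5 window held them once, at 134 bases, and the Bmp4 window held neither motif. Over all 32851 promoter windows of this length, 9.59% held GGCGCC and 42.2% held CAGAC on either strand. Of the 40 windows that belong to 32 members, 11 held GGCGCC and 17 held CAGAC, and none held the full palindrome GTCTAGAC, which 55 of all windows held. Windows of 1 gene can overlap, and the windows shown for Id2, Id3 and Id4 had GC contents of 62.8%, 62.8% and 75.6%, against a median of 52.4%. A match of letters is not a bound site.

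TGF-beta ligand genes were led by Tgfb1. It stood at 49.0, 41.7 and 36.0 TPM in replicates 1, 2 and 3, which was 70.4%, 68.8% and 72.5% of the 3 TGF-beta genes together. Tgfb3 gave 13.7, 10.1 and 9.22 and Tgfb2 gave 6.90, 8.79 and 4.45. The order Tgfb1, Tgfb3, Tgfb2 held in every library, with no overlap between neighbours, although Tgfb3 at its lowest (9.22) was close to Tgfb2 at its highest (8.79). Tgfb1 exceeded Tgfb2 by 2.52 ± 0.34 on the log2(TPM + 1) scale, or 5.72-fold in TPM + 1. Replicate 3 was the lowest library for all 3 genes, under both rescalings too. It was the lowest for 22.4% of all genes of mean TPM 1 or more as deposited. That share was 27.2% without ribosomal protein genes and Mir6236, and 36.7% after median-of-ratios scaling. The lymphatic marker sum was also lowest there. The blood endothelial sum was lowest by little (782, 698 and 669), with single markers going both ways. The part of these cells in this order was not tested.

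TGF-beta is secreted in a latent complex that LTBP proteins anchor to the matrix. Ltbp4 (Entrez 108075, chromosome 7, 27305140 to 27339720) was the third most abundant member by mean after Id1 and Id3, at 182, 178 and 146 TPM. It supplied 91.1%, 92.1% and 90.4% of LTBP transcripts. Ltbp3 (10.8 ± 0.930) and Ltbp1 (5.19 ± 0.390) were lower, and Ltbp2 lay at 0.173, 0.0833 and 0.102. No neighbours in this order overlapped. Replicate 1 was the highest library for the 3 genes at a TPM of 1 or more, against 17.0% of all genes. After median-of-ratios scaling it was the highest for the same 3, against 41.1% of all genes.

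BMP ligand genes lay closer together. Bmp2, the gene of highest mean among them, stood at 7.20, 9.71 and 12.9 TPM, and Bmp3, which encodes a divergent BMP that can oppose the others, at 7.33, 10.2 and 10.4. Bmp4 (Entrez 12159, chromosome 14, 46383525 to 46390669) gave 6.81, 4.36 and 15.0. Bmp2 and Bmp4 did not keep 1 order: Bmp2 was higher in replicates 1 and 2 and lower in replicate 3, with a difference of 0.29 ± 0.63 (log2). Without replicate 2 the sign turned, to -0.063. Bmp6 (3.84 ± 1.07), Bmp7 (3.43 ± 0.875) and Bmp5 (1.62, 1.15 and 5.12) were lower. All neighbours in the order of the 6 BMP genes overlapped between libraries.

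Replicate 3 was the highest library for 6 of 6 BMP ligand genes, against 41.3% of all genes of mean TPM 1 or more. After scaling by the median of ratios over genes it was so for the same 6, against 31.2% of all genes. The 6 genes summed to 30.2, 30.8 and 52.6 TPM. Bmp4 in replicate 3 was 2.68 times the mean of the other libraries, and Bmp5 3.69 times, and the ratio was 1.53 for Bmp2, 1.43 for Bmp6 and 1.19 for Bmp3. Without Bmp4 and Bmp5 the sums were 21.7, 25.3 and 32.5. The 8 fibroblast markers were all at least 1.5-fold above both other libraries in replicate 3, with ratios from 2.52 (Dpt) to 4.28 (Tcf21). So were 5 of 8 muscle and pericyte and 7 of 8 macrophage markers. Of the 8 blood endothelial markers, 3 were so too, Plvap (2.52), Vwf (2.79) and Flt1 (4.51). Another 2, Emcn and Gpihbp1, were at least 1.5-fold below both other libraries there. None of these markers was at 0 in any library. The ratio of Bmp4 to the fibroblast gene Dcn, chosen after the values were seen, was 0.0956, 0.0904 and 0.0965. That of Bmp5 to Dcn was 0.0228, 0.0238 and 0.0330, highest in replicate 3. Dcn in replicate 3 was 2.60 times the mean of the other libraries, and Dpt (2.52) and Lum (2.57) lay near it. Col1a2 (3.10), Col1a1 (3.27), Col3a1 (3.87), Pdgfra (3.96) and Tcf21 (4.28) rose more. The macrophage gene Lyz2 (2.51) and the blood endothelial gene Plvap (2.52) also lay near Dcn, so a near-level ratio to Bmp4 was not particular to fibroblast genes. The part of these cells in the BMP levels was not tested.

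**Figure D2:**
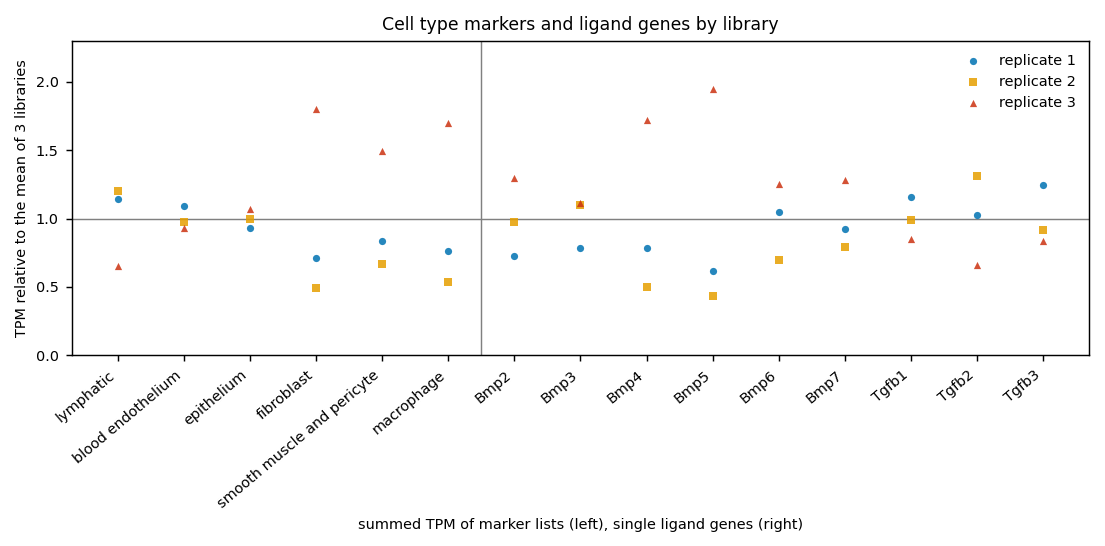
TPM of each library relative to the mean of the 3 libraries, for the summed markers of 6 cell types (left of the line) and single ligand genes (right). Replicate 3 is highest for the epithelial, fibroblast, muscle and macrophage markers and for all 6 BMP genes. It is lowest for the summed lymphatic markers, the 3 TGF-beta genes and, by little, the summed blood endothelial markers.

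Activin subunit genes were near the floor. Inhba, which encodes the subunit of activin A, was listed at 0 in replicates 1 and 2 and stood at 1.01 TPM in replicate 3. Inhbb was listed at 0.282, 0.292 and 0.703. With the depth unknown, levels of this size allow no order between these 2 genes. Follistatin, which binds activins, was similarly low at 0.313, 0.157 and 0.161.

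Among type II receptors, which bind ligand and activate the type I partner, Tgfbr2 stood apart. Tgfbr2 (Entrez 21813, chromosome 9, 116087695 to 116175363), the TGF-beta type II receptor gene, gave 101, 106 and 88.7 TPM, or 86.5%, 83.1% and 79.6% of the 4 type II genes. The BMP receptor gene Bmpr2 gave 8.33, 9.41 and 10.1, and Acvr2a, shared by activins and BMPs, 6.25, 9.98 and 10.5. Bmpr2 and Acvr2a overlapped, and their difference of 0.08 ± 0.25 (log2) lay within its spread. Acvr2b was the lowest at 1.25, 2.02 and 2.08.

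Type I receptor genes were led by Acvr1b (ALK4), the activin receptor, at 19.9, 40.1 and 45.7 TPM. Bmpr1a (ALK3), a BMP receptor of many tissues, gave 13.5, 20.6 and 24.1. Acvrl1 (Entrez 11482, chromosome 15, 101128522 to 101145336), the endothelial ALK1, gave 18.5, 13.7 and 22.0. Acvr1b exceeded Bmpr1a in each library, but the ranges of these 3 genes overlapped. Acvr1 (ALK2) followed at 8.93, 11.2 and 10.8, and Tgfbr1 (ALK5, the TGF-beta type I receptor) at 6.05, 9.04 and 8.77, and these 2 overlapped as well. Bmpr1b (ALK6) was listed at 0, 0.0422 and 0.0844.

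Acvrl1 was higher than Tgfbr1 in 3 of 3 libraries, by 1.47, 0.55 and 1.23 (log2), a mean of 1.08 ± 0.48 or 2.12-fold in TPM + 1. Bmpr1a was higher than Acvr1 in 3 of 3, by 0.82 ± 0.27. Replicate 1 was the lowest library for 4 of the 5 type I genes at a TPM of 1 or more, Acvrl1 being the exception. It was also the lowest for 62.6% of all genes. After median-of-ratios scaling it was the lowest for the same 4, against 37.6% of all genes.

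Both co-receptors were present. Eng (Entrez 13805, chromosome 2, 32646595 to 32682669), which encodes endoglin and is typical of endothelium, gave 74.1, 58.8 and 55.2 TPM. Tgfbr3, which encodes betaglycan, gave 13.3, 12.6 and 10.4. Eng was 4.84-fold higher in TPM + 1, with a difference of 2.28 ± 0.13 (log2) and no overlap. Replicate 1 was the highest and replicate 3 the lowest library for both, under median-of-ratios scaling too. Over all genes these shares were 17.0% and 22.4% as deposited, and 41.1% and 36.7% after that scaling.

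The 8 pairs of genes compared within libraries were tested by flipping the signs of the differences, an exact permutation test, two-sided. Its smallest p with 3 libraries is 0.25, and no pair could pass a threshold of 0.05. The pairs whose sign was the same in all 3 libraries gave that value (adjusted 0.333 over the 8 pairs, Benjamini-Hochberg). They were Id1 and Id3, Tgfb1 and Tgfb2, Acvrl1 and Tgfbr1, Bmpr1a and Acvr1, Eng and Tgfbr3, and Smad6 and Smad7. The exact permutation p was 0.75 for Bmp2 and Bmp4 and 1 for Bmpr2 and Acvr2a.

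Of the SMADs that BMP receptors phosphorylate, Smad1 stood at 37.7, 43.2 and 39.5 TPM and Smad5 at 17.6, 23.2 and 19.9. Smad9 was low at 0.162, 0.313 and 0.494. None of these 3 genes overlapped its neighbour, and Smad1 supplied 67.9%, 64.8% and 65.9% of their sum. The SMADs of the TGF-beta and activin branch were lower, with Smad3 at 7.40, 10.02 and 14.1 and Smad2 at 7.69, 10.3 and 8.10, which overlapped. The sum of Smad1, Smad5 and Smad9 was 3.68, 3.28 and 2.71 times that of Smad2 and Smad3. Smad4, the partner of both branches, gave 41.4, 54.9 and 55.3.

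Inhibitory SMADs compete for receptors and recruit ubiquitin ligases to them. Smad6, which acts mainly on BMP signals, stood at 8.14, 13.1 and 15.9 TPM, and Smad7, which acts on both branches, at 8.95, 16.3 and 16.4. Smad7 was higher in 3 of 3 libraries, by a small margin (Smad6 minus Smad7 -0.15 ± 0.13, log2), and their ranges overlapped. Replicate 1 was low and replicates 2 and 3 lay together for Smad7. The 5 receptor-activated SMAD genes summed to 4.13, 2.96 and 2.54 times the 2 inhibitory ones.

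The spread of the members between libraries was read against that of all genes. Of 34 members at a mean TPM of 1 or more, 12 had a highest library at least 1.5-fold above the lowest on the log2(TPM + 1) scale, or 35.3%, against 24.5% of 13606 genes. The median difference between the highest and the lowest library was 0.45 (log2) for the members and 0.36 for all genes. The 12 were Tgfb2, Bmp2, Bmp4, Bmp5, Bmp6, Acvrl1, Acvr1b, Bmpr1a, Acvr2a, Smad3, Smad6 and Smad7. The count fell to 5 without replicate 1 and to 4 without replicate 3, where the share over all genes was 8.15% and 14.1%.

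In 6 members a single library stood at least 1.5-fold from both others. Replicate 1 was below both in Acvr1b, Acvr2a, Smad6 and Smad7, as in 8.41% of all genes, and replicate 3 was above both in Bmp4 and Bmp5, as in 3.78%. No member had replicate 1 above both (0.610% of all genes), replicate 2 above (0.757%), replicate 2 below (1.21%) or replicate 3 below (1.11%). Scaling by median of ratios moved the median gene by 0.14 in replicate 1 and by -0.08 in replicates 2 and 3 (log2). On this scale replicate 1 was below both others only in Acvr1b and Smad7 among the members, as in 3.58% of all genes, and Bmp4 and Bmp5 were still above both in replicate 3, as in 2.97% of all genes. Replicate 2 was then below both in Bmp4, Bmp6 and Acvrl1, as in 1.83% of all genes. Replicate 1 was above both in Tgfb3 (1.24% of all genes), and replicate 3 below both in Tgfb2 (1.499%).

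**Figure D3:**
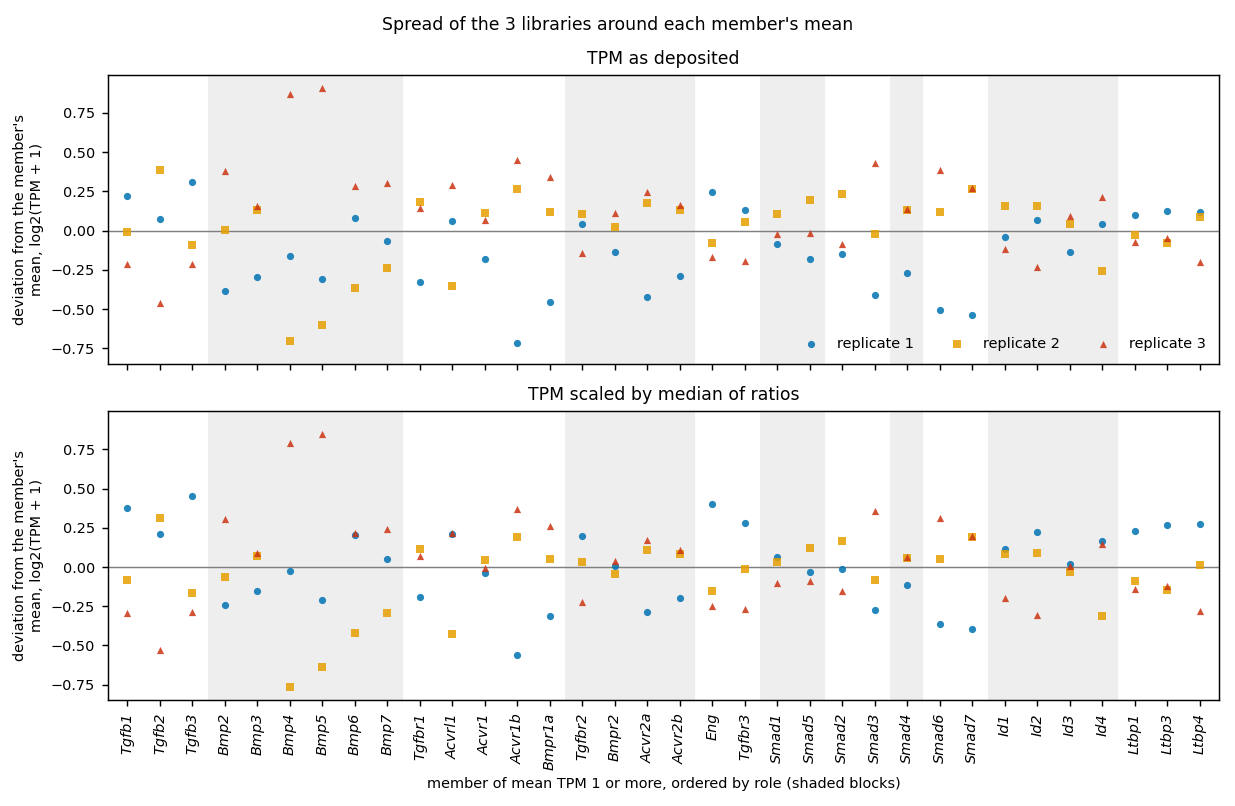
Deviation of each library from the member's own mean on the log2(TPM + 1) scale, for the 34 members at a mean TPM of 1 or more, as deposited (top) and after median-of-ratios scaling (bottom). Bmp4 and Bmp5 have the widest spread, with replicate 3 high in both panels. Smad6, Smad7 and Acvr1b have replicate 1 lowest in both.

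The BMP antagonist genes of the list were low throughout. Grem1, the gremlin gene of crypt-base muscle and fibroblasts, gave 0.641, 0.699 and 0.870 TPM, and Chrd, the chordin gene, 0.369, 0.729 and 1.04. Chrdl1 gave 0.293, 0.238 and 0.679, Nog, the noggin gene, 0.482, 0.303 and 0.264, and Bmper 0.240, 0.270 and 0.263. All neighbours in this order overlapped. The 6 BMP ligand genes summed to 14.9, 13.8 and 16.9 times these 5 antagonists in replicates 1, 2 and 3, a mean of 15.2 ± 1.58. Each of the 5 had a mean below a TPM of 1, where the counting error is unknown. Without Bmp3, which can oppose the others, the ratios were 11.3, 9.21 and 13.5. In replicate 3 the summed fibroblast markers were 2.99 times their mean in the other libraries, and the antagonist sum was 1.46 times its own. Without Chrd and Chrdl1 the antagonist sums were 1.36, 1.27 and 1.40, and Nog was lowest in replicate 3. A link between the fibroblast markers and the antagonists was not tested.

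Further genes of the pathway came from a list of 65, all found in the tables, of which 37 reached a TPM of 1 in all 3 libraries and 22 in none, a share near the 53.4% of all genes. The antagonists outside the 5 above were not all low. Nbl1, which encodes the BMP antagonist DAN, stood at 57.6, 48.6 and 54.4 TPM. Fstl1, a follistatin-like secreted protein, gave 43.0, 42.0 and 49.2, and Twsg1, a BMP-binding protein that works with chordin, 30.8, 34.9 and 33.9. Each exceeded every BMP ligand gene in every library. Nbl1 alone exceeded even the sum of the 6 BMP ligand genes (30.2, 30.8 and 52.6) in each library. The excess of ligand over antagonist transcripts given above thus holds only for the 5 antagonist genes summed there. Of the 11 further antagonists, 6 reached a TPM of 1 in all libraries, and Sost was listed at 0 in all. Htra1, a secreted protease that binds family ligands, gave 8.38, 4.92 and 24.1, with replicate 3 at 3.63 times the mean of the others. Replicate 3 was at least 1.5-fold above both others in 3.78% of all genes, and replicate 2, also apart in Htra1, below both in 1.21%.

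The genes of the ALK1 ligands, Gdf2, which encodes BMP9, and Bmp10, were listed at 0 in all 3 libraries. Both proteins are known to reach vessels through the blood. Of the 22 further ligand genes, 3 passed a TPM of 1 throughout, against 53.4% of all genes. They were Bmp8a (1.83 ± 0.687, uncertain because reads may be split with its close copy Bmp8b), Lefty1 (8.29 ± 0.620) and Gdf15 (11.1 ± 1.84). Among endothelial partners, Tmem100, a membrane protein downstream of ALK1, gave 8.83, 6.97 and 7.30, and Lrg1, a secreted glycoprotein that binds endoglin, gave 74.9, 56.6 and 39.3. The co-receptor gene Rgmb gave 34.3, 45.3 and 49.1.

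The 8 further genes listed for activation of latent TGF-beta were led by Furin (26.5 ± 4.52), the protease that cleaves the precursor. Thbs1 (18.7 ± 5.34), an activator of the latent complex, followed. Lrrc32, which encodes the latent TGF-beta carrier GARP, stood at 15.1 ± 1.72, and Bmp1, a protease of the matrix and of chordin, at 12.3, 9.83 and 9.38. Of the 8 genes in this subgroup all but Itgb8 passed a TPM of 1 throughout, against 53.4% of all genes. Thbs1 was 24.9 in replicate 2 against 16.02 and 15.3. Replicate 2 was at least 1.5-fold above both others there, as in 0.757% of all genes.

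All 10 intracellular regulators passed a TPM of 1 in all 3 libraries, against 53.4% of all genes. Fkbp1a, which encodes the FKBP12 protein that holds type I receptors inactive, was the highest at 282, 268 and 214 TPM. The co-repressor genes Tgif1 (49.4 ± 6.13), Ski (23.7 ± 4.16), Skil (12.1 ± 3.55) and Tgif2 (2.58 ± 0.221) covered a wide range. The ubiquitin ligase genes Smurf2 and Smurf1 stood at 18.7 ± 4.45 and 9.29 ± 3.08, the deubiquitinase gene Usp15 at 19.96, 28.1 and 29.1, the receptor-SMAD inhibitor gene Pmepa1 at 14.8 ± 0.773 and Zfyve9, the gene of the SMAD anchor SARA, at 8.12 ± 2.91. As deposited, replicate 1 was at least 1.5-fold below both others in Smurf1, Skil and Zfyve9, as in 8.41% of all genes. It was the lowest library for 62.6% of all genes. After median-of-ratios scaling these shares were 3.58% and 37.6%, and the 3 genes were not read on that scale.

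The 5 further target genes likewise passed a TPM of 1 in all 3 libraries, against 53.4% of all genes. Tgfbi, a matrix protein induced by TGF-beta, stood at 127, 118 and 89.9 TPM. Ccn2, listed under its older symbol Ctgf, gave 19.7, 16.4 and 26.7, and Hey1, a target shared with Notch, 23.5, 22.3 and 13.3. Atoh8, a target of ALK1 signals, was low at 3.42 ± 0.420. Replicate 3 was at least 1.5-fold below both others in Hey1, as in 1.11% of all genes. The lymphatic marker sum was also lowest in that library, and the blood endothelial sum by little, with single markers going both ways. The link was not tested.

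**Figure D4:**
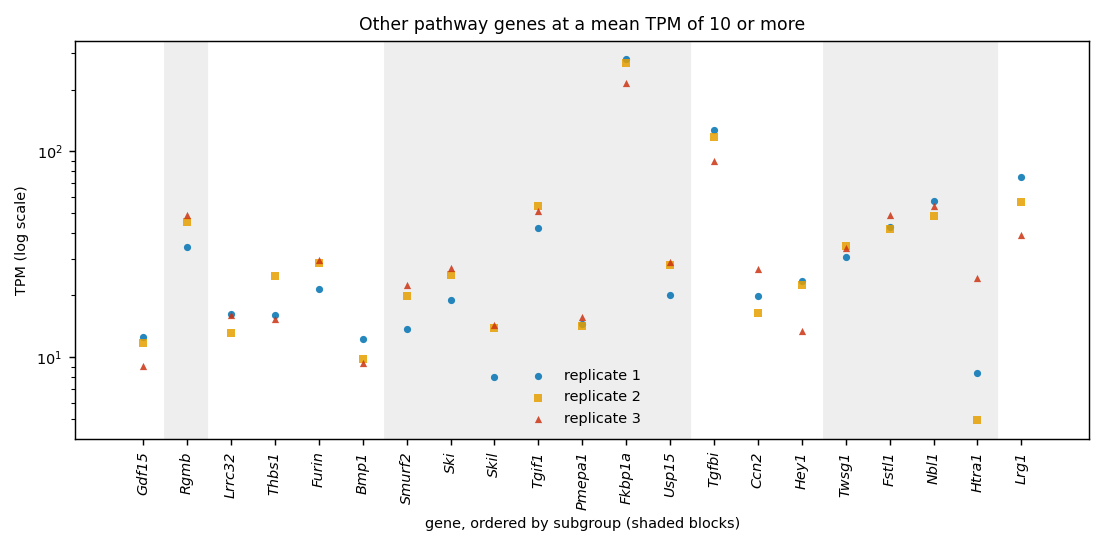
TPM of the further pathway genes at a mean of 10 or more, on a log axis, with 1 mark per library and shaded blocks for the subgroups. Fkbp1a and Tgfbi are the highest, and Htra1 has the widest spread, with replicate 3 at 24.1.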

How the data were processed

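RNA from 1 group of 3 libraries was analysed from 1 deposited table per library. The values are TPM computed by the authors, per the file headers, and summed to 999939, 999907 and 999896 in replicates 1, 2 and 3. HTSeq, Cell Ranger 6.0.1 and build mm10 are named without a role, per the submitters' processing notes. How TPM was computed and the annotation used are not given in the sources used here. TPM corrects for length and library size, so a change in abundant transcripts moves every other value.

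Members were matched by symbol. Their Entrez IDs gave positions in RefSeq GRCm38.p6, the assembly of mm10, for 45 of 45, and promoter windows for 32. The members, roles, gene pairs, gene lists and thresholds were chosen with earlier results of these data known. Levels and differences are on the TPM and log2(TPM + 1) scales. A gene counted as expressed at a TPM of 1 in all 3 libraries, and differences between libraries were read for genes of mean TPM 1 or more at a fold of 1.5. The 8 gene pairs were tested with an exact sign-flip permutation test. Named were all members, further pathway genes of mean TPM 10 or more, and all regulators and endothelial partners. Lefty1, Bmp8a, Atoh8, Itgb8 and Sost were named after their values were seen. Alternatives were a pseudocount of 0.1, other TPM thresholds, TPM without ribosomal protein genes and Mir6236, median-of-ratios scaling and leaving out each replicate. The result for 1 gene is not reported here. The coding of the counting steps was checked on simulated data of small spread, with shifts only in replicate 3 of more abundant genes. It gives no rate of false calls for these libraries. Python 3.11.15, numpy 2.4.6, pandas 2.3.3 and matplotlib 3.10.9 were used.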

Additional observations from a re-analysis of the deposited data

How the results depend on the processing

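The count of members at a TPM of 1 stayed within 1.5 times of 34 under each alternative. The count of members ranging 1.5-fold or more was 12. It was 5 without replicate 1, 9 without replicate 2 and 4 without replicate 3. The share over all genes was then 8.15%, 18.8% and 14.1%. Each of these settings compared fewer libraries, and the count also differed with the library left out. Leaving out replicates gave -0.067 to 0.15 (log2) for Bmpr2 minus Acvr2a, turning below 0 without replicate 1, and -0.063 to 0.54 for Bmp2 minus Bmp4, turning below 0 without replicate 2. The other 6 gene pairs kept their direction under a pseudocount of 0.1, both rescalings and each replicate left out. The ratio of BMP ligands to the 5 listed antagonists was 12.6 from medians in place of sums. TPM without ribosomal protein genes and Mir6236 left 2 members, Acvr1b and Smad7, with replicate 1 at least 1.5-fold below both others, in place of 4. The share over all genes was then 7.28%. Under that setting replicate 2 was also below both others in Bmp4 (1.48% of all genes) and replicate 3 in Tgfb2 (1.37%). No pairing of samples between groups was possible because the series has 1 group, and only genes were paired, within libraries. Values below a TPM of 1 rest on an unknown number of reads, and 3 libraries from possibly shared animals limit every SD.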
